A study of Mus musculus with 45 samples.

Results

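The genes described here are the nuclear genes for subunits of the 5 oxidative phosphorylation complexes. They were taken by name: every protein-coding gene whose symbol follows the naming of complex I (Nduf), complex II (Sdha to Sdhd), complex III (Uqcr and Cyc1), complex IV (Cox4 to Cox8) or complex V (Atp5). This gave 85 genes of the 35272 in the joined count tables: 36 for complex I, 4 for complex II, 9 for complex III, 19 for complex IV and 17 for complex V. Ndufa4, which carries a complex I name but is known as a complex IV subunit, was counted with complex IV. Cox7a2l, a supercomplex factor, and Atp5s, coupling factor B, were kept where their names put them. No measured value entered the choice.

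Forelimb buds of CD1 mouse embryos at gestation day 13 were cultured for 3, 24 or 48 h in medium with dimethyl sulfoxide (DMSO, the vehicle and control), or with bisphenol AF (BPAF), a fluorinated relative of bisphenol A, at 1 µM or 5 µM. Each of the 9 combinations of treatment and time has 5 poly(A) RNA-seq libraries, 45 in all. Per the labels, forelimbs of embryos were pooled and both sexes shared a culture, and a library holds RNA of whole limbs. The labels do not say whether replicates came from separate litters, so p-values measure the spread between these 5 libraries. For 1 library of the 1 µM group at 3 h (replicate 5) a label names 10 µM BPA while its title names 1 µM BPAF; leaving it out changed no call among the genes described.

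The complexes sit in the inner mitochondrial membrane. Complexes I and II pass electrons from NADH and succinate to ubiquinone, complex III hands them to cytochrome c, complex IV reduces oxygen, and complex V uses the proton gradient built by I, III and IV to make ATP. Most subunits come from nuclear genes expressed in nearly every cell, and a few come from mitochondrial DNA. Some complex IV subunits exist as a pair of genes. Cox6a2, Cox7a1 and Cox8b are the isoforms of heart and skeletal muscle, and Cox6a1, Cox7a2 and Cox8a are their widely expressed partners. In the limb bud, muscle cells, which come from the somites, fuse into fibres during this period.

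Library totals ran from 14901842 to 25154115 reads in genes (median 17820524). The forelimb label was checked against Tbx5, the forelimb transcription factor, whose group means lay between 214.7 and 294.6 CPM (reads per library, scaled to a fixed total), and against the hindlimb factors Pitx1, at 2.79 to 5.61 CPM, and Tbx4, at 19.8 to 24.7 CPM. Tbx5 was thus the highest of the 3 in every group, but Tbx4 was not near 0. Reads of Y-linked genes were absent from 3 libraries, 1 each in the control and 1 µM groups at 3 h and in the 1 µM group at 48 h, which goes against the labelled mixture of sexes for those libraries. Without the control library of these 3 (replicate 3 at 3 h), the subunit genes called numbered 23 rather than 26 from 3 to 24 h in the controls, 18 rather than 15 from 3 to 48 h, and 0 rather than 1 for 5 µM at 3 h. Without the 1 µM library at 48 h (replicate 2) they numbered 2 rather than 3 for 5 µM against 1 µM, and the 1 µM comparisons with control had none either way. In the fits that left out 1 library, all genes called ran from 5582 to 6399 (3 to 24 h) and 7955 to 8425 (3 to 48 h) in the controls. They ran from 15 to 45 for 5 µM at 3 h and from 718 to 948 for 5 µM against 1 µM at 48 h. At 24 h, replicate 5 of the control and of the 5 µM group had the most haemoglobin reads of their groups (0.2511% and 0.2528% of reads, against 0.1008% to 0.1569% in the other libraries of those groups). All levels below are CPM or, where genes are compared with each other, RPKM (CPM per kilobase of gene); both used TMM-scaled library sizes.

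Promoter sequences were drawn for the isoforms on which the results turn and for genes to set beside them. RefSeq (GRCm38.p6) gave a window for 69 of the 85 genes, found by symbol or synonym; Cox6a2, Cox4i2 and Cox4i1 are among the other 16. Each window below is the 250 bases before the start that RefSeq annotates, on the gene's own strand. For Cox7a1, Cox6a1 and Uqcr11 the deposited gene start lies further upstream, so the window's last bases fall inside the gene as the count tables place it. Cox8b, the muscle isoform with the largest fall, lies at chr7:140900447-140900696 (minus strand), and its partner Cox8a at chr19:7217617-7217866 (minus). Cox7a1, the muscle isoform that passed no test, is at chr7:30183921-30184170 (plus). Cox6a1, the widely expressed partner of Cox6a2, is at chr5:115348959-115349208 (minus). Uqcr11, a small complex III subunit that was lower at 48 h, is at chr10:80406822-80407071 (minus). Cox6b2, the gene that was higher, is at chr7:4753095-4753344 (minus). Capitals mark matches, on either strand, to 5 motifs: the E-box CANCTG bound by myogenic factors, the MEF2 motif (CTA and TAG with any 4 bases between), the ETS motif CCGGAAG of GABP, the NRF1 motif (GCGC and TGCGC with any base between) and the ERR half-site AAGGTCA.
Cox8b: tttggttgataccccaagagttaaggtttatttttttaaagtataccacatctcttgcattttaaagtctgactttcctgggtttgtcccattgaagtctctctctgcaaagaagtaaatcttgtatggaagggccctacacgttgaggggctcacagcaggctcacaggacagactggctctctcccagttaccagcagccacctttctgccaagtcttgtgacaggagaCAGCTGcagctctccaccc
Cox8a: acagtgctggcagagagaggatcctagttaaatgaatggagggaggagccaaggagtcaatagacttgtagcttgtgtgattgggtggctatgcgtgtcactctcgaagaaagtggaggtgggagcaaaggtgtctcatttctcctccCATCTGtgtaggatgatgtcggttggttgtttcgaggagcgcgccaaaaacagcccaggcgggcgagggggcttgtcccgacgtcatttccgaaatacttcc
Cox7a1: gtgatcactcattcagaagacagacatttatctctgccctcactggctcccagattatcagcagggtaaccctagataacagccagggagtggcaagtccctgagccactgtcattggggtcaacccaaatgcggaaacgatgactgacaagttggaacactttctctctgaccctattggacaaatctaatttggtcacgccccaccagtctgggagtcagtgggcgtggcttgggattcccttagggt
Cox6a1: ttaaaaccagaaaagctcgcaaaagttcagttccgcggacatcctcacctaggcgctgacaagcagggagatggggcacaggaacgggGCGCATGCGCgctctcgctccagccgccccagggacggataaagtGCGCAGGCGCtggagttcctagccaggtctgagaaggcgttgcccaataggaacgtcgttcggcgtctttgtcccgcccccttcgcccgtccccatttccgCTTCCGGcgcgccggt
Uqcr11: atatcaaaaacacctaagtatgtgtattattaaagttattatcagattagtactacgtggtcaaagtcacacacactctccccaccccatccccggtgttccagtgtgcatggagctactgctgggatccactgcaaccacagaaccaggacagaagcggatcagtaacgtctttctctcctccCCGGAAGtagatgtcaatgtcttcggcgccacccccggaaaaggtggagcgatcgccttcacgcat
Cox6b2: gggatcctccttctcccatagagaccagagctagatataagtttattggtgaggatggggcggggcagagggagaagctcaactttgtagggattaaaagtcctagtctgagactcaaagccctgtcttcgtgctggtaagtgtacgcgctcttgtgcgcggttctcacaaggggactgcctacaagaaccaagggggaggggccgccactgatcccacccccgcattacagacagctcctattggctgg

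Cox8b held 1 E-box match, starting 19 bases before the start, and Cox8a held 1, starting 102 bases before it. Cox6a1 held 2 NRF1 matches, at 162 and 117 bases, and 1 ETS match at 16 bases. Uqcr11 held 1 ETS match at 66 bases. Cox7a1 and Cox6b2 held none of the motifs. Among the 72 windows of the 67 matched genes other than muscle isoforms, 14 held an NRF1 match (19.4%, against 5.18% of the 21263 protein-coding windows of the same length) and 12 an ETS match (16.7% against 8.98%). The E-box was found in 27 of these windows (37.5% against 42.0%), the ERR half-site in 5 (6.94% against 3.59%) and the MEF2 motif in 1 (1.39% against 3.06%). A match is a string of letters and does not show that a factor binds there.

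Summed over all 85 genes, the level in the controls was 4494 ± 175 RPKM at 3 h, 4121 ± 151 at 24 h and 4418 ± 316 at 48 h (SD, n = 5 each). Averaged over all 45 libraries, Atp5a1, the alpha subunit of the ATP synthase, was the most abundant per length (262.7 RPKM), followed by Cox6a1 (207.9), Atp5b (192.8), Cox4i1 (182.1) and Cox8a (178.6). In complex I the lowest was Ndufb2 (2.20 RPKM). The deposited length joins all transcripts of a gene, so a gene with a long rare transcript has a low RPKM. Cox8c, a testis isoform, had reads in 1 library only (0.578 CPM in control replicate 2 at 48 h), and Cox7b2, also known from testis, stayed at or below 0.283 CPM in every library. Neither passed the filter on low counts in any comparison.

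**Figure D1:**
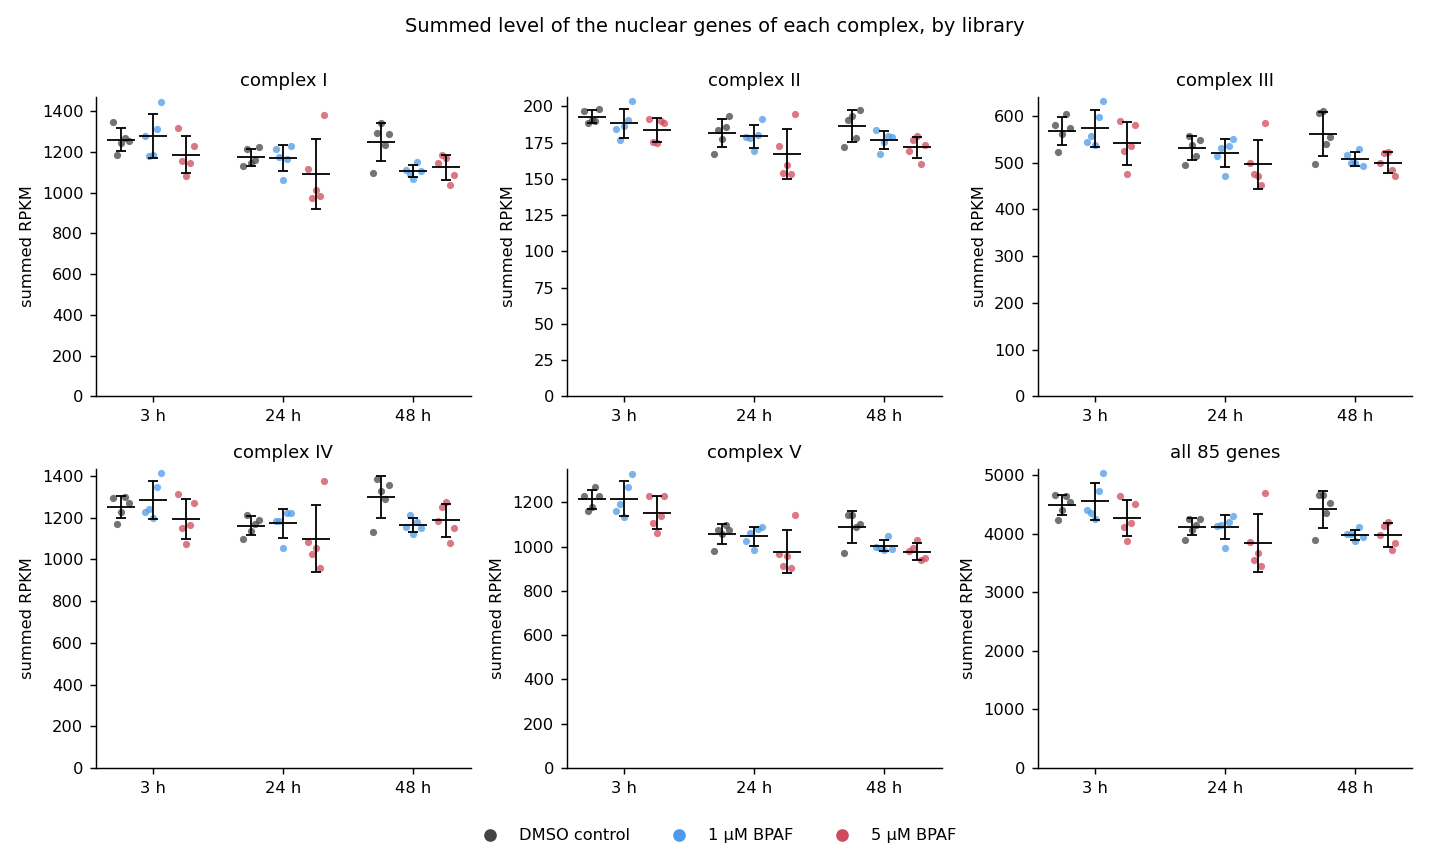
Summed RPKM of the nuclear genes of each complex and of all 85 genes, by culture time and treatment (vertical axes from 0). The complex IV sum leaves out Cox6a2, Cox7a1 and Cox8b, and the sum of all 85 holds them. Points are the 45 libraries and bars are mean ± SD of 5. At 48 h the total in 4 of the 5 controls lay between 4362 and 4654 and in control replicate 1 at 3895, against 3714 to 4197 at 5 µM.

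Cox6a2 and Cox8b, muscle isoforms of complex IV, had the largest differences of the 83 tested genes, both from 3 to 48 h in the controls and with 5 µM BPAF at 48 h. Cox6a2 (chr7:128205435-128206387, minus strand, mm10) had 2.89, 2.37, 3.45, 3.43 and 2.24 CPM in the 5 control libraries at 3 h. At 24 h it had 7.32, 8.64, 6.67, 10.0 and 7.62 CPM, and at 48 h 12.02, 17.4, 14.6, 14.2 and 14.1 CPM. The 3 control groups did not overlap. By edgeR's quasi-likelihood test with Benjamini-Hochberg adjustment over all genes, the 3 to 24 h rise of Cox6a2 was 1.48 ± 0.17 (log2 estimate ± SE, adjusted p = 2.43e-06) and its 24 to 48 h rise 0.83 ± 0.13 (adjusted p = 0.00038).

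With 5 µM BPAF, Cox6a2 was lower than in the controls at 24 and 48 h. It had 4.51, 4.30, 5.89, 3.42 and 5.25 CPM at 24 h, every library below every control of that time. At 48 h it had 3.46, 4.89, 6.93, 4.86 and 3.74 CPM, with the highest treated library at 6.93 and the lowest control at 12.02. The difference from control was -0.78 ± 0.17 at 24 h (log2, adjusted p = 0.0268) and -1.62 ± 0.17 at 48 h (adjusted p = 8.32e-06). The 48 h call held in all 16 alternative fits, with estimates from -1.78 to -1.52. The 24 h call was lost when any of replicates 1, 2 or 4 of the control or of the 5 µM group was left out, with estimates from -0.88 to -0.69 over all 17 alternatives. The change of the BPAF effect from 24 to 48 h was -0.82 ± 0.24 and did not pass the test of the difference itself (adjusted p = 0.404).

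Cox8b (chr7:140898945-140900446, minus) rests on few reads, 29 to 57 in the 48 h controls and 4 to 20 at 5 µM. Its levels in the controls were 0.761, 0.215, 0.355, 0.181 and 0.311 CPM at 3 h and 2.61, 2.05, 3.45, 2.42 and 1.196 CPM at 48 h. At 5 µM and 48 h they were 0.231, 0.784, 1.27, 0.640 and 0.320 CPM. Control replicate 5 (1.196) and treated replicate 3 (1.27) were the only libraries to cross over. Cox8b rose by 2.64 ± 0.40 from 3 to 48 h in the controls (adjusted p = 2.75e-05) and differed by -1.87 ± 0.41 at 5 µM and 48 h (adjusted p = 0.00744), a call kept in all 16 alternatives (-2.24 to -1.65). At 24 h the difference was -0.47 ± 0.56 (adjusted p = 0.834), and at 3 h Cox8b was too low to be tested.

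Cox7a1 (chr7:30184144-30186078, plus), the remaining muscle isoform, passed the test in no comparison. It had 1.73, 1.29, 0.557, 1.21 and 1.37 CPM in the 3 h controls, 0.833, 0.725, 0.977, 0.884 and 1.08 at 24 h, and 0.972, 1.60, 1.94, 1.14 and 0.990 at 48 h. These groups overlapped, and the 48 h to 3 h difference was 0.11 ± 0.33 (log2, adjusted p = 0.808). At 5 µM and 48 h the libraries held 0.807, 0.664, 0.891, 0.704 and 0.534 CPM, all below the lowest control. The difference of -0.89 ± 0.32 did not pass the test (adjusted p = 0.117) and was not called in any of the 16 alternatives. The 10 to 32 reads behind each 48 h control and 5 µM value limit what could be detected.

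The widely expressed partners set the scale of the pairs. Cox6a2 made up 1.92% ± 0.35 of the summed RPKM of Cox6a1 and Cox6a2 in the 3 h controls, 5.76% ± 0.76 at 24 h and 8.54% ± 1.22 at 48 h (SD, n = 5). At 5 µM the share was 3.62% ± 0.75 at 24 h and 3.10% ± 0.90 at 48 h, and at 1 µM and 48 h it was 7.90% ± 1.11. Cox8b was 3.13% ± 1.18 of its pair with Cox8a in the 48 h controls and 0.997% ± 0.563 at 5 µM. Cox7a1 was 4.39% ± 1.55 of its pair with Cox7a2 in the 48 h controls and 2.79% ± 0.58 at 5 µM. So most of the transcript of every pair came from the widely expressed gene in every group. Cox6a1 itself differed by -0.07 ± 0.09 at 5 µM and 48 h (adjusted p = 0.736) and Cox7a2 by -0.23 ± 0.09 (adjusted p = 0.14), while Cox8a was lower, at -0.26 ± 0.07 (adjusted p = 0.0428).

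**Figure D2:**
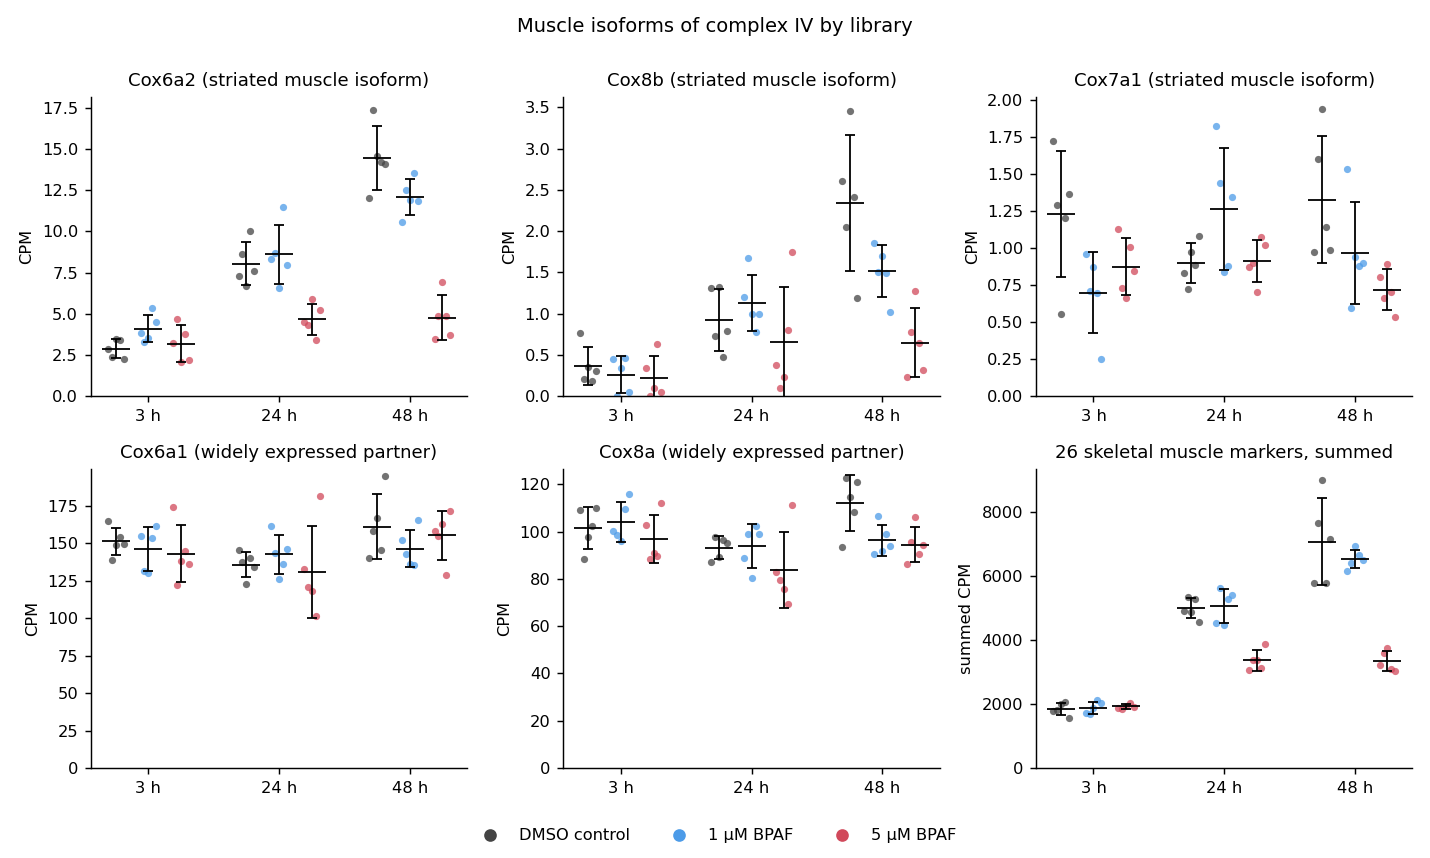
CPM of 3 muscle isoforms and 2 partners, and summed CPM of 26 skeletal muscle markers, for each library by culture time and treatment (axes from 0, each panel with its own scale; points are libraries, bars mean ± SD of 5, with lower bars clipped at 0). Cox6a2 at 5 µM stayed between 3.42 and 6.93 CPM at 24 and 48 h, while the 48 h controls lay between 12.02 and 17.4; the marker sum showed the same separation.

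Markers of skeletal muscle fibres moved with Cox6a2 and Cox8b, and not with Cox7a1 over time. The list of 26 genes, which holds none of the 85, includes Acta1, Ckm, Mylpf and troponins. Of the 25 tested, 22 rose and none fell from 3 to 24 h in the controls, where 19.1% of all genes tested rose. Their median was 1.37 on the log2 scale, while Cox7a1, at -0.45 and not called, lay below all 25. At 5 µM and 48 h all 25 were lower (median -0.997, range -2.67 to -0.40), where 4.42% of all genes were. At 24 h, 14 of 24 were lower at 5 µM (median -0.54), where 1.1% of all genes were. The summed level of the markers was 5782 to 8993 CPM in the 48 h controls and 3047 to 3740 CPM at 5 µM. Only 2 of the 25 muscle genes differed by more than Cox6a2 at 5 µM and 48 h, and only 1 by more than Cox8b, while 17 lay below Cox7a1. Set against the marker sum, Cox6a2 was at 2.08 ± 0.32 per 1000 muscle CPM in the 48 h controls and 1.42 ± 0.31 at 5 µM, with ranges of 1.62 to 2.45 and 1.07 to 1.85 that overlapped. On the same scale Cox8b was at 0.337 ± 0.118 and 0.188 ± 0.106, and Cox7a1 at 0.186 ± 0.032 and 0.215 ± 0.033, the latter higher at 5 µM; the ranges of both overlapped, and these ratios were not tested. In RNA from whole limbs, fewer muscle cells and less of the transcript per cell cannot be told apart. The part of muscle content in the isoform result was not tested.

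Both genes are also known from heart and brown fat. Of the heart markers, Nppa stayed at or below 0.455 CPM and Myl7 at or below 0.153 CPM in every library. Myh6 moved with the muscle genes (20.4 ± 2.51 CPM in 48 h controls, 7.71 ± 1.06 at 5 µM). Tnni3, on the same list, was at 3.323 ± 0.617 CPM in 48 h controls and 2.115 ± 0.513 at 5 µM. At 48 h, 2 heart markers could be tested for 5 µM against control. Both were lower at an unadjusted p under 0.05 by edgeR, and 1 was called. Ucp1, which defines brown fat, was at 0 in all 10 libraries of the 48 h control and 5 µM groups. In the other groups it reached at most 1.312 CPM, in a 5 µM library at 24 h. Prdm16, on the same list, was well expressed, at 81.15 ± 16 CPM in 48 h controls and 90.4 ± 9.93 at 5 µM. Among the 9 brown fat markers, 5 could be tested at 48 h. None passed for 5 µM against control by edgeR (1 at an unadjusted p under 0.05, higher). For 5 µM against 1 µM, 1 passed, Pparg, which was higher (1.08 ± 0.26, adjusted p = 0.018).

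Cox4i2 and Cox6b2 were the other complex IV isoforms that stood apart at 48 h. Cox4i2 (chr2:152754173-152765037, plus) is an alternative subunit IV described in lung and in oxygen-responsive cells. In the 48 h controls it had 6.09, 8.79, 5.33, 9.87 and 4.70 CPM, at 1 µM 7.39, 11.4, 4.89, 8.72 and 4.91, and at 5 µM 2.48, 3.02, 5.22, 4.29 and 3.79. Only treated replicate 3 overlapped the lowest control. The difference from control was -0.90 ± 0.24 (log2, adjusted p = 0.0258), with alternatives from -1.03 to -0.74. The call was lost in 5 of 16 alternatives, those without control replicate 2 or 4 or treated replicate 1, 2 or 5, at an adjusted p of up to 0.0891. Its partner Cox4i1 differed by -0.08 ± 0.08 (adjusted p = 0.647). Markers of endothelium were lower as well at 48 h (3 of 11 called, where 4.42% of all genes were lower, median -0.31). Their summed level was 396.1 to 438.0 CPM in controls and 316.9 to 380.9 at 5 µM. The sum of 9 pericyte genes, a list chosen after the values were seen, ran from 683.2 to 747.3 CPM in controls and from 687.9 to 777.0 at 5 µM. The part of these cells in the Cox4i2 result was not tested.

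Cox6b2 (chr7:4751792-4753094, minus), known as the testis form of subunit VIb, was the only one of the 83 tested genes that was higher at 5 µM. It had 13.6, 15.5, 16.7, 14.5 and 18.6 CPM in the 48 h controls and 31.0, 30.8, 19.8, 18.6 and 20.5 CPM at 5 µM. Treated replicates 1 and 2 stood above the other treated libraries, and the lowest treated library lay just under the highest control. The rise was 0.60 ± 0.15 (log2, adjusted p = 0.0194), and it lost the call when treated replicate 1 or treated replicate 2 was left out, at adjusted p of up to 0.0606. Against 1 µM the rise was 0.84 ± 0.16 (adjusted p = 0.00413) and was called in all 17 alternatives. Its partner Cox6b1 differed from control by -0.21 ± 0.08 (adjusted p = 0.148). Germ cell markers summed to 1.49 to 2.66 CPM in the 48 h controls and 1.76 to 3.26 CPM at 5 µM.

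**Figure D3:**
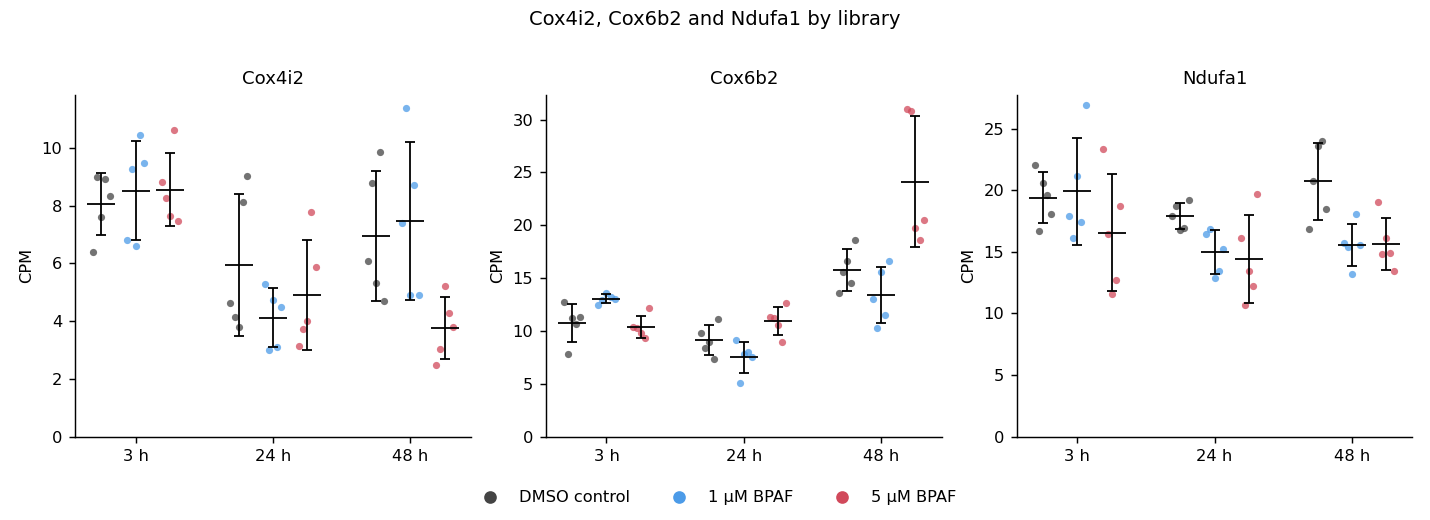
CPM of Cox4i2, Cox6b2 and Ndufa1 in each of the 45 libraries by culture time and treatment (axes from 0; points are libraries, bars mean ± SD of 5). At 48 h and 5 µM, Cox6b2 reached 31.0 and 30.8 CPM in replicates 1 and 2 and 18.6 to 20.5 in the others.

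At 5 µM and 48 h, 17 of the 83 tested genes were lower and 1 was higher, where 7.16% of the 16345 genes tested were called (4.42% lower, 2.74% higher). The median difference of the 83 was -0.17 on the log2 scale and 80 estimates were negative; over all tested genes the median was -0.002. With the 3 muscle isoforms set aside, 15 of 80 were lower and 1 higher, with a median of -0.17. The 18 calls depended on single libraries. Without control replicate 2, 3, 4 or 5 they numbered 3, 6, 4 and 7, and without treated replicate 1, 2, 3, 4 or 5 they numbered 6, 10, 11, 6 and 4, while without control replicate 1 they numbered 26. Control replicate 1 had the lowest summed level of its group (3895 RPKM, against 4362 to 4654). The median stayed between -0.21 and -0.13 in these 10 fits. All genes called numbered 912 to 1153 in the same fits, against 1171 in the main fit, so the number of subunit genes called moved by more.

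Complex I had 4 lower of 36 and none higher (median -0.16). Ndufa1, a small membrane-arm subunit, had 16.9, 20.7, 23.6, 24.0 and 18.5 CPM in the 48 h controls and 19.0, 14.8, 16.1, 14.9 and 13.5 CPM at 5 µM. The groups overlapped through control replicates 1 and 5 and treated replicate 1. The difference was -0.42 ± 0.12 (adjusted p = 0.0395). Ndufb2, another membrane-arm subunit, fell by 0.43 ± 0.12 (adjusted p = 0.0407), and its groups did not overlap (11.4 to 13.4 CPM against 7.57 to 10.99). Ndufa13, also known as GRIM-19, had a difference of -0.35 ± 0.09 (adjusted p = 0.0303), and Ndufs7, which carries the last iron-sulphur cluster before ubiquinone, one of -0.32 ± 0.09 (adjusted p = 0.0417). The catalytic Ndufv1 (-0.20 ± 0.06, adjusted p = 0.072) and Ndufs1 (-0.07 ± 0.05, adjusted p = 0.524) were not called.

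Complex II had 1 lower of 4. Sdhd, a membrane anchor, had 77.1, 90.0, 89.3, 81.3 and 91.4 CPM in the controls and 68.7, 80.4, 74.2, 65.8 and 73.0 CPM at 5 µM. Only control replicate 1 fell within the treated range, and the difference was -0.26 ± 0.07 (adjusted p = 0.0235). Sdha, the flavoprotein that oxidises succinate, differed by -0.05 ± 0.05 (adjusted p = 0.664). Complex III had 3 lower of 9 (median -0.20). Uqcr11 had 26.9, 37.0, 35.8, 34.6 and 31.1 CPM in the controls and 24.2, 28.6, 27.4, 26.2 and 21.4 CPM at 5 µM. Again control replicate 1 lay inside the treated range, and the difference was -0.39 ± 0.10 (adjusted p = 0.0249). Uqcrfs1, the Rieske iron-sulphur protein, differed by -0.22 ± 0.06 and the core protein Uqcrc2 by -0.20 ± 0.06 (adjusted p = 0.0371 and 0.0397).

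In complex IV, Cox5b and Cox8a were the widely expressed subunits called lower. Cox5b, a zinc-binding subunit, had a difference of -0.27 ± 0.08 (adjusted p = 0.0456) and 62.97 to 83.0 CPM at 5 µM against 82.9 to 100.9 in controls. Ndufa4 was at -0.19 ± 0.08 (adjusted p = 0.204). Complex V had 4 lower of 17 (median -0.17). Atp5e, the epsilon subunit of the central stalk, had 59.7, 80.7, 75.6, 79.1 and 68.8 CPM in controls and 55.3, 71.7, 57.9, 52.6 and 50.7 CPM at 5 µM. Its difference was -0.35 ± 0.10 (adjusted p = 0.0349), and the groups overlapped through control replicates 1 and 5 and treated replicate 2. Atp5d, the delta subunit of that stalk, was at -0.26 ± 0.07 (adjusted p = 0.0306), Atp5g3, one of 3 genes for the c-ring protein, at -0.25 ± 0.07 (adjusted p = 0.0312), and Atp5f1, of the peripheral stalk, at -0.17 ± 0.05 (adjusted p = 0.0424). The catalytic subunits Atp5a1 (-0.13 ± 0.06, adjusted p = 0.267) and Atp5b (-0.18 ± 0.06, adjusted p = 0.0608) were not called. Each call named in complexes I, II, III and V, and that of Cox8a, was lost in some of the 16 alternative fits, mostly those without 1 library. It was lost in 5 for Uqcr11 and Atp5g3, 6 for Ndufa13 and Sdhd, 7 for Atp5d, and 8 for Ndufa1, Ndufb2 and Atp5e. It was lost in 9 for Ndufs7, Uqcrc2 and Cox8a, 10 for Uqcrfs1 and 11 for Atp5f1. For Cox5b no such count was made. Some losses came with all libraries kept. With limma-voom the adjusted p was 0.0578 for Ndufa1, 0.0589 for Ndufs7 and 0.0513 for Cox8a. Without the filter on low counts it was 0.0555 for Ndufb2, 0.0572 for Uqcrfs1, 0.0686 for Uqcrc2 and 0.114 for Atp5f1, and with DESeq2 size factors it was 0.0538 for Atp5f1.

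The 3 c-ring genes encode the same mature protein. In the 48 h controls Atp5g3 gave 52.6% ± 1.78 of their summed RPKM, Atp5g2 35.04% ± 1.74 and Atp5g1 12.3% ± 0.67. At 5 µM the shares were 51.4% ± 2.58, 35.01% ± 2.39 and 13.6% ± 0.47. Those of Atp5g3 and Atp5g2 lay within 1 SD of the controls, and that of Atp5g1 ran from 13.04% to 14.2% against 11.8% to 13.5%, with only control replicate 5 inside the treated range; this difference was not tested.

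**Figure D4:**
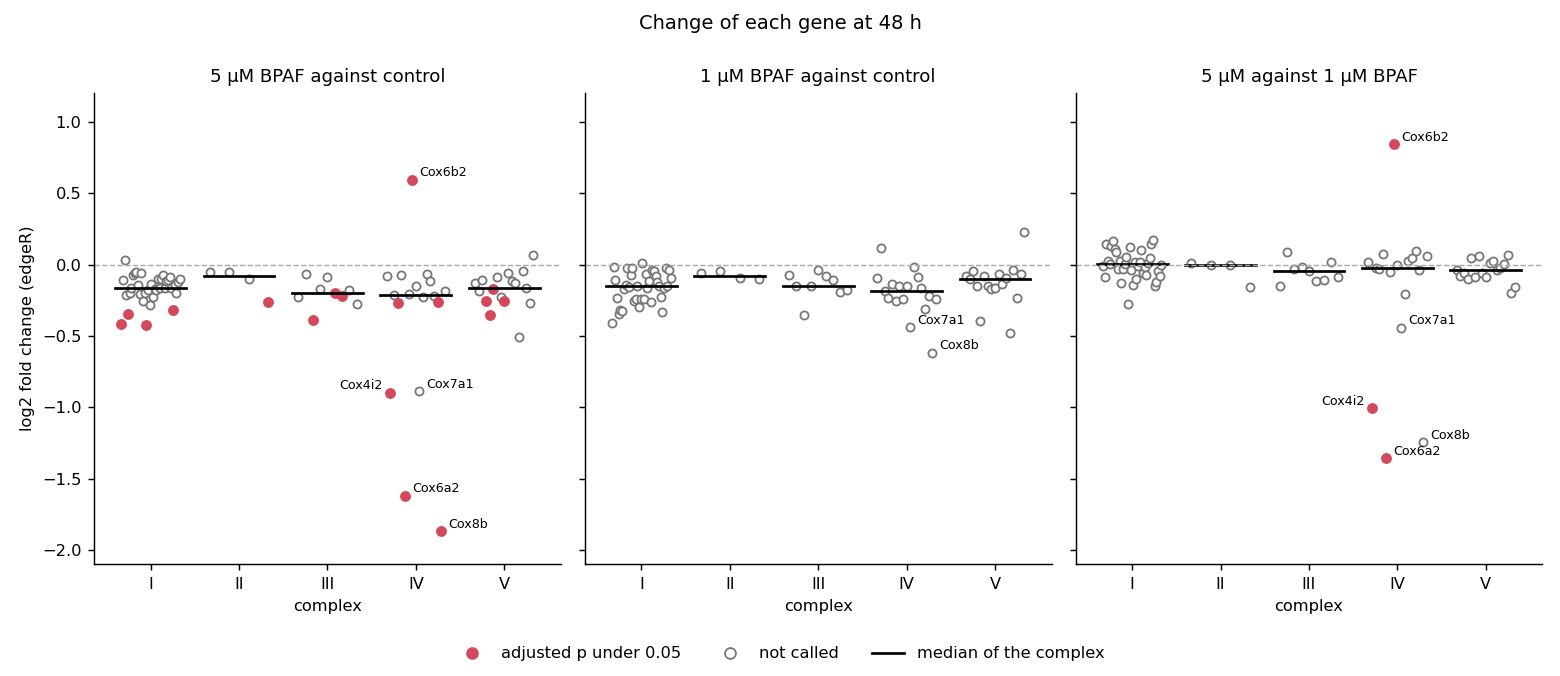
Log2 fold change of each of the 83 tested genes at 48 h, by complex, for 5 µM against control, 1 µM against control and 5 µM against 1 µM; filled points had an adjusted p under 0.05 and lines are medians of a complex. Cox6a2 and Cox8b lie at -1.62 and -1.87 in the first panel, and most other genes lie between 0 and -0.5 in the first 2 panels and around 0 in the third.

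At 1 µM no gene of the 83 was called at 48 h by edgeR, where the share called among all 16479 genes tested was 0%. At an unadjusted p under 0.05 there were 30, all lower, while DESeq2 called 1 and limma-voom 0. For counts at an unadjusted p, here and elsewhere, the share of all genes was not computed. None of them is read as standing above a background. The median difference was -0.15, with 80 estimates below 0. This comparison uses the same control libraries as that of 5 µM, so the 2 medians, -0.15 and -0.17, are not independent of each other. Cox6a2 at 1 µM had 10.6, 12.5, 11.9, 13.6 and 11.9 CPM, overlapping the controls, with a difference of -0.26 ± 0.11 (adjusted p = 0.998). For Cox8b the difference was -0.62 ± 0.30 and for Cox7a1 -0.44 ± 0.33 (adjusted p = 0.998 for both).

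The direct comparison of 5 µM with 1 µM at 48 h does not use the controls. The median of the 83 genes was -0.02, with 49 estimates below 0 and 34 above, and 3 genes were called where 5.96% of 16349 genes were (2.19% higher, 3.77% lower). Cox6a2 was lower at 5 µM by -1.36 ± 0.17 (adjusted p = 4.41e-05) and Cox4i2 by -1.01 ± 0.25 (adjusted p = 0.0212), and Cox6b2 was the gene that was higher. The Cox4i2 call was lost in 5 of 17 alternatives, with the Y-linked covariate and without replicate 2 or 4 at 1 µM or 1 or 2 at 5 µM, at an adjusted p of up to 0.0699. Cox8b differed by -1.25 ± 0.39 and did not pass (adjusted p = 0.0786). All 25 tested muscle markers were lower here too (median -0.90). For Ndufa1 the 5 µM to 1 µM difference was -0.01 ± 0.11, for Uqcr11 -0.03 ± 0.10 and for Atp5e 0.05 ± 0.08.

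Fold changes at 48 h were also set beside gene length. Over the 80 tested genes other than muscle isoforms, the rank correlation between deposited gene length and log2 fold change was 0.224 at 5 µM and 0.497 at 1 µM against control, -0.352 for 5 µM against 1 µM, and -0.544 for control 48 h against control 24 h. Over all protein-coding genes tested the same correlations were 0.077, 0.261, -0.092 and -0.096. At 1 µM the 40 shorter genes had a median difference of -0.20 and the 40 longer of -0.09, and in the controls from 24 to 48 h the medians were 0.13 and 0.01. These correlations run across genes of the same libraries, genes are not replicates, and 3 of the 4 comparisons share the 48 h controls. The part of transcript length in the 48 h result was not tested.

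At 24 h, 5 µM BPAF gave 1 call among 83 genes, Cox6a2, where 1.57% of 16433 genes were called (0.475% higher, 1.1% lower). The median was -0.11 and 73 estimates were below 0. The summed level of all 85 genes was 3850, 3549, 3665, 3457 and 4696 RPKM in treated replicates 1 to 5 and 3888, 4258, 4069, 4145 and 4244 RPKM in the controls. Treated replicate 5, the library with the most haemoglobin reads at that dose and time, lay above every control, and the other 4 treated libraries lay below every control. Without that library 13 genes were called, all lower, and without the number 5 libraries of both groups 10 were, all lower. Over the 10 fits without 1 library, all genes called ran from 109 to 498, against 258 in the main fit. The all-gene numbers of these particular fits are not given, so neither count is read against a background. At 1 µM and 24 h edgeR called none of 83 (1 at an unadjusted p under 0.05, 0 by DESeq2 and limma-voom; 0.00608% of all genes), with a median of -0.01.

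At 3 h and 5 µM the only call among 82 genes was Ndufv3, a subunit of the NADH-oxidising module, where 0.18% of 16651 genes were called (0.114% higher, 0.0661% lower). It had 52.3, 49.6, 53.2, 50.1 and 51.8 CPM in controls and 43.3, 44.9, 40.3, 43.3 and 42.1 CPM at 5 µM, so the groups did not overlap. The difference was -0.26 ± 0.05 (adjusted p = 0.0376). The call was kept in 1 of the 10 fits that left out a library, the one without control replicate 4. At 48 h Ndufv3 differed by -0.10 ± 0.07 (adjusted p = 0.505). At 1 µM and 3 h edgeR called none of 82 (4 at an unadjusted p under 0.05, 0 by DESeq2 and limma-voom; 0% of all genes). No gene passed the test of a change in the 5 µM effect from 3 to 24 h (2 at an unadjusted p under 0.05) or from 24 to 48 h (3), by edgeR, DESeq2 or limma-voom, where 0.336% (0.0627% higher, 0.274% lower) and 0.0693% (0.00578% higher, 0.0635% lower) of all genes did.

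**Figure D5:**
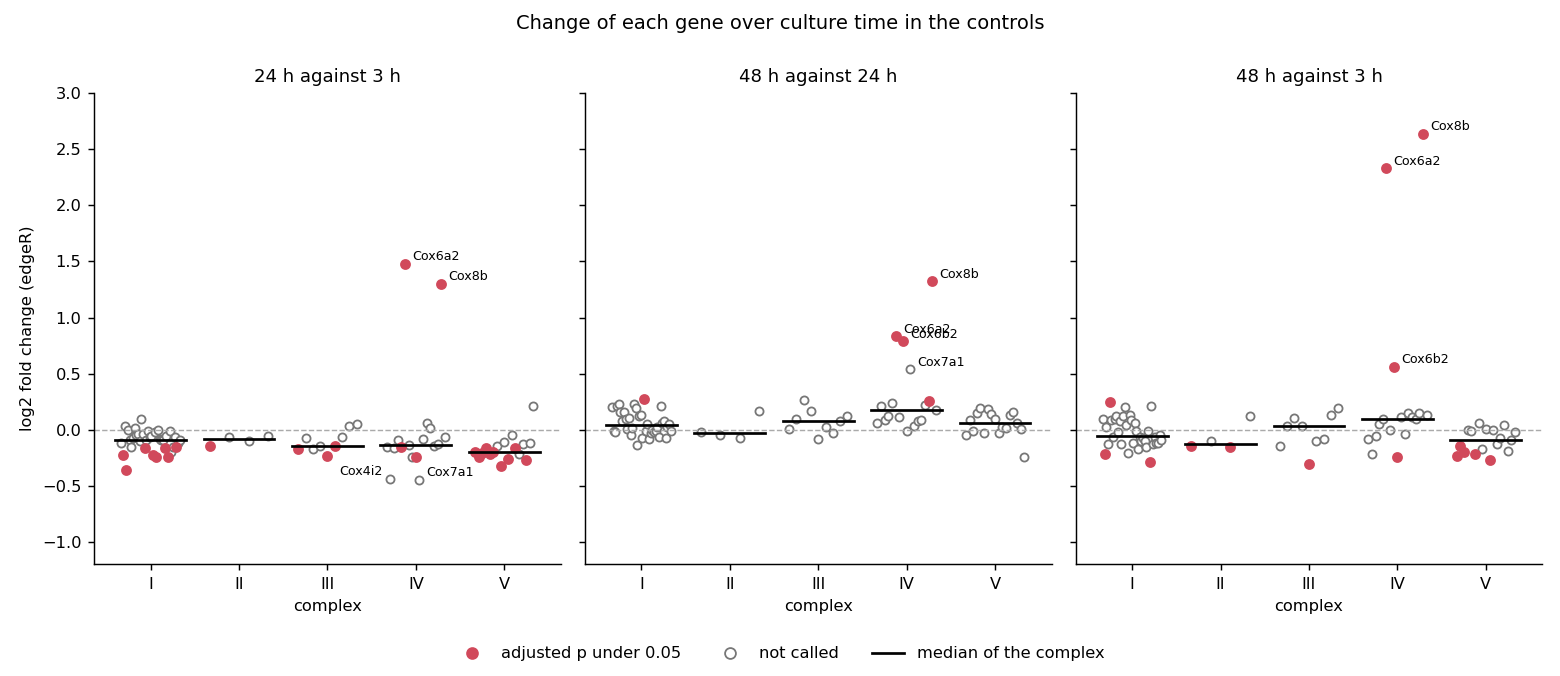
Log2 fold change of each tested gene over culture time in the DMSO controls, by complex, for 24 h against 3 h, 48 h against 24 h and 48 h against 3 h; filled points had an adjusted p under 0.05 and lines are medians of a complex. Cox6a2 and Cox8b rose by 2.33 and 2.64 from 3 to 48 h, and the complex V median in the first panel is -0.20.

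In culture without BPAF, 24 subunit genes fell slightly during the first day. From 3 to 24 h, 24 of 83 were lower and 2 were higher, where 37.8% of 16481 genes were called (18.7% lower, 19.1% higher). Without control replicate 1, 4 or 5 at 3 h or replicate 3 at 24 h the calls numbered 17, and without replicate 1 at 24 h 16. All genes called ran from 5582 to 6399 in the fits without 1 library, against 6227 in the main fit. Complex V held 10 of the lower genes among its 17 (median -0.20). Atp5h, a peripheral stalk subunit, had 148.5, 149.1, 143.4, 160.3 and 139.9 CPM at 3 h and 110.4, 125.9, 132.0, 127.0 and 125.9 CPM at 24 h, groups that did not overlap. It fell by 0.26 ± 0.06 on the log2 scale (adjusted p = 0.00171). Atp5b fell by 0.24 ± 0.05 (adjusted p = 0.00056) and Atp5g2 by 0.33 ± 0.07 (adjusted p = 0.00119). Complex I had 8 lower of 36, among them Ndufa12 (-0.36 ± 0.08, adjusted p = 0.00134), and complex III 3 of 9, among them the core protein Uqcrc1 (-0.23 ± 0.06, adjusted p = 0.00534). The 2 that rose were Cox6a2 and Cox8b; the call of Cox8b was lost with the Y-linked covariate and without replicate 2, 4 or 5 at 3 h or 1 or 3 at 24 h, at an adjusted p of up to 0.0867.

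From 24 to 48 h, 5 of 83 rose and none fell, where 16.3% of 16445 genes were called (9.71% higher, 6.57% lower). They were Cox6a2, Cox8b (1.32 ± 0.34, adjusted p = 0.0132), Cox6b2 (0.79 ± 0.12, adjusted p = 0.000377), Cox8a (0.26 ± 0.07, adjusted p = 0.0212) and Ndufb6 (0.27 ± 0.08, adjusted p = 0.0331). The count was 14 without control replicate 1 at 48 h and 3 without control replicate 1 at 24 h. All genes called ran from 2099 to 2675 in the fits without 1 library, against 2677 in the main fit. The calls of Cox6a2, Cox8b and Cox6b2 held in all 17 alternatives, and those of Cox8a and Ndufb6 were lost in 5 and 7, at an adjusted p of up to 0.0897 and 0.0986. Leaving out replicate 1 or 3 at 24 h or replicate 5 at 48 h ended both, replicate 2 at 48 h ended that of Cox8a, and replicate 4 at 24 h or 3 or 4 at 48 h ended that of Ndufb6. Over the whole 3 to 48 h span, 4 rose and 11 fell, where 50.9% of 16539 genes were called (25.6% higher, 25.4% lower). Beside the muscle isoforms, Cox6b2 (0.56 ± 0.13, adjusted p = 0.00139) and Ndufa13 (0.24 ± 0.08, adjusted p = 0.0151) rose. Those that fell were led by Uqcrc1 (-0.30 ± 0.07, adjusted p = 0.00127), Ndufs4 (-0.29 ± 0.08, adjusted p = 0.00471) and Atp5h (-0.27 ± 0.06, adjusted p = 0.000996), with 5 of 17 in complex V.

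Genes that work with these subunits were followed in 4 further lists. None of the 13 subunits encoded in mitochondrial DNA was called at 5 µM and 48 h (0 at an unadjusted p under 0.05, edgeR), with a median of -0.03 and a range of -0.27 to 0.14. Since poly(A) selection was used, their read counts depend on the short tails of mitochondrial RNA. Of 45 tested assembly factors, 1 was lower, the complex III factor Uqcc2 (-0.37 ± 0.09, adjusted p = 0.0136), and the median was -0.005. None of 24 genes of mitochondrial mass and the citrate cycle was called (8 at an unadjusted p under 0.05, all lower), with a median of -0.12.

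Among 18 regulators 1 was lower, and among the 45 assembly factors above 1 was, where 4.42% of all genes were. With 1 gene in each list, neither count can be told apart from that background. Ppargc1b, a co-activator of mitochondrial gene expression, had 4.88 ± 0.76 CPM in the 48 h controls and 2.57 ± 0.59 at 5 µM (SD, n = 5), with ranges of 4.03 to 5.81 and 2.24 to 3.63 that did not overlap. Its difference was -0.94 ± 0.20 (adjusted p = 0.00544) and was called in all 16 alternatives. Against 1 µM Ppargc1b differed by -0.80 ± 0.21 (adjusted p = 0.0345), a call lost in 8 of 17 alternatives, without any 1 library other than replicate 2 at 1 µM or replicate 3 at 5 µM (adjusted p of up to 0.103). In the controls it rose by 0.93 ± 0.22 from 3 to 24 h (adjusted p = 0.00309). Its relative Ppargc1a differed by 0.01 ± 0.22 (adjusted p = 0.991), Nrf1 by 0.07 ± 0.06 (adjusted p = 0.593) and Tfam, which packs mitochondrial DNA, by 0.01 ± 0.08 (adjusted p = 0.96). Macrophage markers were also lower at 5 µM and 48 h (9 of 13 called, median -0.65), as were the muscle markers; the part of either cell type in the Ppargc1b result was not tested.

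Exons of 29 of the 85 genes overlap another gene in GENCODE M21. Among the genes named above these include, with a neighbour on the other strand, Cox6a2 (Itgad), Ndufa13 (Tssk6), Ndufb2 (Braf), Atp5d (Cbarp) and Uqcrc2 (Pdzd9). The sources used here do not state whether counting used strand, so reads of such neighbours cannot be told apart, and processed copies of several subunit genes may share reads with them.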

How the data were processed

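Poly(A) RNA of cultured forelimb buds was sequenced in 45 libraries, 5 in each of 9 groups (14901842 to 25154115 reads in genes). The submitters' processing notes name CASAVA 1.8, STAR 2.5, HTSeq 0.6.1, DESeq2 and the mm10 build; whether counting used strand is not given in the sources used here. Raw counts for each gene were deposited by the authors in 9 pairwise tables, joined here by gene identifier (35272 genes; 11.7% of gene and library combinations absent from a table were read as 0). Those tables also hold normalized signal deposited by the authors, which equals counts over 1 factor per library, FPKM deposited by the authors, which lay within 1% of the count over the deposited gene length for 100.0% of values, and the authors' log2 fold changes and p-values, which were not used.

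Each comparison was fitted with edgeR 4.0.16 (R 4.3.3) on its 10 libraries: TMM scaling, filterByExpr (min.count 10, min.total.count 15), the quasi-likelihood test, and Benjamini-Hochberg adjustment over all genes tested, with a call at an adjusted p under 0.05. The SE is the log2 fold change over the square root of F. CPM and RPKM used TMM over all 45 libraries. Alternatives were DESeq2 1.42.0, limma-voom (limma 3.58.1), DESeq2 size factors, no filter, a replicate block, a covariate for Y-linked reads, and fits without single libraries. The 5 µM comparison at 48 h was simulated over 16345 genes, with changes of 0.5 or 1 on the log2 scale. Among changed genes that passed the filter, 56.1% of those changed by 0.5 and 83.3% of those changed by 1 were recovered. There were 8 false calls. Changes smaller than 0.5, the size of most subunit differences at 48 h, were not simulated.

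Same-numbered libraries were taken as paired where every pair's deviations correlated above 0.1. This held for 1 µM against control at 24 h (0.114 to 0.43) and, by library code, at 48 h (0.103 to 0.463). For 5 µM against control, 4 of 5 pairs passed at 24 h (-0.033 to 0.204) and 4 of 5 at 48 h (0.026 to 0.369). By library code, 4 of 5 passed for 5 µM against 1 µM at 48 h (0.068 to 0.349). At 3 h, 4 of 5 passed for 1 µM against control (0.067 to 0.489). Fewer pairs passed in the other comparisons. The main fits were unpaired throughout, and the number's origin is not stated in the labels.

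Genes were named by rule: the muscle isoforms, their partners, Cox4i1, Cox4i2 and Ndufa4; in each comparison the 4 called genes of smallest p per complex and direction; the highest and lowest RPKM of each complex; genes never tested; and up to 3 called genes per list. Ndufv1, Ndufs1, Sdha at 48 h, Cox6b1, Nrf1, Tfam at 48 h, Ucp1, Nppa, Myl7, Tnni3 and Prdm16 were added after their values were seen. Cox5b at 48 h lies outside the rule and is given as well. The members and lists were chosen with earlier results of these data known, and the pericyte list after the values were seen. The level of 1 gene that the rule names is not reported here.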

Additional observations from a re-analysis of the deposited data

Results flagged for a closer look

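In 8 of 162 groups of 5 libraries, 1 library stood apart from the other 4, its gap to the nearest of them divided by the group's range exceeding 0.71; chance alone gives about 1 in 20. Complex IV, summed without the muscle isoforms, was lowest in replicate 3 of the 1 µM group at 24 h (1056 RPKM against 1182 to 1222, ratio 0.759). Complex V was highest in replicate 5 of the 5 µM group at 24 h (1144 RPKM against 901.4 to 968.7, ratio 0.723) and in replicate 4 of the 1 µM group at 48 h (1046 RPKM against 986.8 to 999.8, ratio 0.78). The share of Cox6a2 in its pair was highest in replicate 4 of the 1 µM group at 3 h (3.47% against 2.51% to 2.78%, ratio 0.715) and at 24 h (8.04% against 5.06% to 5.87%, ratio 0.728). The share of Cox4i2 was highest in replicate 4 of the 5 µM group at 24 h (6.03% against 2.34% to 3.32%, ratio 0.735). Among the c-ring genes, Atp5g1 was highest in control replicate 5 at 48 h (13.5% against 11.8% to 12.2%, ratio 0.796) and Atp5g3 lowest in control replicate 4 at 3 h (48.8% against 50.7% to 51.1%, ratio 0.822).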

How the results depend on the processing

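The number of the tested subunit genes called moved under these settings, by over 1.5 times except where stated. For 5 µM at 3 h (1 call) it was 0 with limma-voom and 0 with the Y-linked covariate, and 0 to 1 without single libraries. For 5 µM at 24 h (1 call) it was 2 with DESeq2, 2 with the replicate block, 8 with the Y-linked covariate, 10 without the number 5 libraries, and 0 to 13 without single libraries. For 5 µM at 48 h (18 calls) it was 28 with the replicate block and 3 to 26 without single libraries. For 1 µM at 48 h (0 calls) it was 1 with DESeq2. For 5 µM against 1 µM (3 calls) it was 6 with the replicate block by library code, and 2 to 4 without single libraries, the latter not over 1.5 times. For the controls from 24 to 48 h (5 calls) it was 8 with DESeq2, 10 with the replicate block, and 3 to 14 without single libraries. From 3 to 24 h it was 16 to 27 without single libraries. From 3 to 48 h it was 14 to 19 without single libraries, which is not over 1.5 times. The cause was not tested. The replicate block gave 0 calls in the paired 1 µM comparisons, as did the unblocked fits. Elsewhere the rule for pairing was not met, and whether same-numbered libraries are paired there is not settled. No named gene reversed its direction across a call. Without single libraries, 4373 values for named genes kept their side of the threshold, 321 lost and 26 gained a call. Depth limits Cox8b, Cox7a1, Cox7b2 and Cox8c most.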
